A study of Mus musculus with 9 samples.

Results

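Gene expression in the injured mouse kidney was compared between libraries with and without BHB sodium pretreatment (BHB is beta-hydroxybutyrate), across every gene of the deposited count tables. The comparison took 5 of the 9 libraries of the series. These were the 3 libraries titled BHBNa_bIRI, from kidneys with bilateral ischemia-reperfusion injury after BHB sodium pretreatment, and bIRI replicates 1 and 3, from kidneys with that injury and no pretreatment. The library titled bIRI replicate 2 was left out, because in all 29678 genes its count was the rounded-down average of both other bIRI counts. The 3 sham libraries, from kidneys without ischemia, serve as a reference level. They also entered the same fit, in which all 3 groups share 1 estimate of the spread. The p-values and SEs of the comparison thus rest in part on sham libraries. All kidneys were taken 24 h after reperfusion. Both injured groups carried the same operation, so the groups differed by the pretreatment as far as the labels say. Strain, sex, age, the dose and timing of BHB and the number of mice were not given in the labels. No label ties a library to an animal, so p-values measure only the spread between these libraries, which may be technical.

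Beta-hydroxybutyrate is the main circulating ketone body. The liver makes it from fatty acids in fasting, and other tissues turn it back into acetyl-CoA, the fuel of the tricarboxylic acid cycle, through the enzymes encoded by Bdh1 and Oxct1. It is also known as a ligand of the receptor Hcar2, as an inhibitor of histone deacetylases and as a molecule that dampens the inflammasome sensor NLRP3. Ischemia followed by reperfusion injures the proximal tubule first, the segment that burns fatty acids to reclaim filtered solutes. Injured tubule cells lose their transporters, switch on injury genes and draw in neutrophils and macrophages.

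The 5 injured libraries held 33477985 to 45014455 counts. A floor of 3 counts in a library corresponded to 0.0646 to 0.0815 in counts-per-million (CPM) values, on library sizes scaled by TMM (trimmed mean of M-values). Mitochondrially encoded genes held 15.9% of counts in both bIRI libraries and 24.0%, 24.7% and 30.3% in BHBNa_bIRI replicates 1, 2 and 3. Much of that difference lay in 1 gene, mt-Co1. It held 6.97% and 4.96% of counts in bIRI replicates 1 and 3 and 15.1%, 13.4% and 17.0% in BHBNa_bIRI replicates 1 to 3. Kidney markers were present throughout, with Umod, the gene of uromodulin, at 219 CPM or more in every library. Both bIRI libraries stood far apart. The root mean square log2 difference between them over 13951 genes was 0.895. It was 0.366 to 0.428 between BHBNa_bIRI libraries and 0.277 to 0.390 between sham libraries, whose spread was pooled with that of bIRI. These are bulk libraries, in which fewer cells of a type and less RNA per cell cannot be told apart.

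Genes that were alike in both bIRI libraries and shifted in all 3 BHBNa_bIRI libraries were taken as the core of the description, and they moved in both directions. The falling genes included enzymes of fatty acid oxidation (Cpt1a, Acsl1, Etfdh and Cyp4a14), the selenium carrier gene Selenop, the taurine and inositol transporter genes Slc6a6 and Slc5a3, the calcium buffer gene Calb1 and the transcription factor genes Tead1 and Klf9. The rising genes included leukocyte genes (Csf3r, Fcgr1 and Rac2), interferon response genes (Oas1a, Irf7 and Xaf1) and DNA replication genes (Mcm3 and Pold1). The fuel genes Cpt1a, Acsl1, Etfdh and Cyp4a14 were already below sham in bIRI and lay lower still with BHB.

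By edgeR's quasi-likelihood test, 2431 of 17967 tested genes were called at an adjusted p of 0.05 after Benjamini-Hochberg adjustment (13.5%), 876 higher (4.88%) and 1555 lower (8.65%) in BHBNa_bIRI. The adjusted p values of all these genes lay between 0.0266 and 0.05, with a median of 0.0354, so that the calls sat close to the threshold. The count therefore depended on single libraries. It was 0 without sham replicate 1, without sham replicate 2 or without BHBNa_bIRI replicate 1, where 5566, 5307 and 4676 genes passed an unadjusted p of 0.05. It was 1 without BHBNa_bIRI replicate 3, the gene being Calb1, and 1026, 1154 and 794 without sham replicate 3, BHBNa_bIRI replicate 2 or bIRI replicate 3. Without bIRI replicate 1 it was 8381, with the lone bIRI library assumed to vary like the other groups. At an unadjusted p of 0.05, 6191 genes passed (34.5%), and DESeq2 called 4507 genes, which held 2402 of the 2431. A fit of the 5 compared libraries alone called 1 gene, the predicted model Gm47283, which was named after its values had been seen. Of 120 called genes followed by name, 117 kept their call without bIRI replicate 1, 60 without bIRI replicate 3, 74 without BHBNa_bIRI replicate 2 and 91 without sham replicate 3.

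The strand setting of the counting was not given in the sources used here, so reads from genes that overlap on opposite strands cannot be told apart. Such overlaps covered 73.5% of the exonic bases of Mt2, 39.7% of those of Acsm3, 26.5% of those of Slc3a1, 23.4% of those of Ccnd1 and 27.1% of those of Coq4. They covered 12.6% to 19.5% in Oxct1, Pycard, Bdh1, Psmb8, Rfc2, Ctnnb1, Pdha1, Nfkb2, Cxcl16, Atp1b1 and Umod.

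The size and direction of the difference moved with transcript length. The genes were divided by transcript length into 10 bins of equal size. Over the shortest bin (60 to 889 nucleotides) the median log2 fold change was 0.66, and 13.2% of these genes were called higher and 2.57% lower. Over the longest bin (6255 nucleotides or more) the median was -0.60, with 0.39% called higher and 25.2% lower. Across 13951 genes, the Spearman correlation of the log2 fold change with length was -0.497, given as a description since genes are not independent replicates, and each of the 6 pairs of 1 BHBNa_bIRI and 1 bIRI library gave a value between -0.490 and -0.308. Libraries of 1 group also differed by length. The correlation was 0.329 for bIRI replicate 3 minus replicate 1, -0.357 to 0.323 between BHBNa_bIRI libraries and -0.432 to -0.176 between sham libraries.

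**Figure D1:**
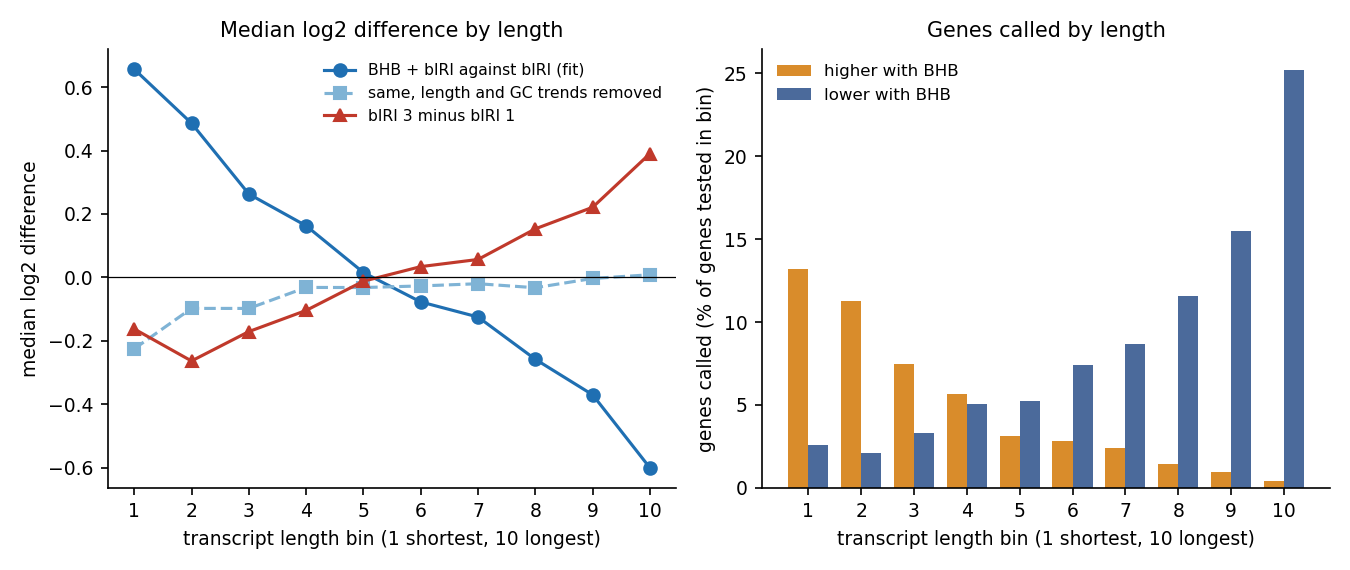
The left panel plots the median log2 difference in each of 10 bins of genes by transcript length, for the fitted BHBNa_bIRI against bIRI contrast (drawn as BHB + bIRI), for that contrast with length and GC trends removed, and for bIRI replicate 3 minus replicate 1. The right panel plots the percentage of genes called higher and lower by edgeR in each bin, with rises at 13.2% in the shortest bin and falls at 25.2% in the longest.

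Each library's trends with transcript length and GC content were therefore removed in a further fit. In that fit 2 genes passed an adjusted p of 0.05 (0.0111%), Fa2h and Cfap36, both lower. At an unadjusted p of 0.05, 4695 genes passed (26.1%), and 2363 genes passed an adjusted p of 0.1 (13.2%), 907 higher (5.05%) and 1456 lower (8.1%), from 0.0399 upward. Removing the length trend alone left 1462 calls at an adjusted p of 0.05 (8.14%). The cause of the length trend was not tested.

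A set of steady genes was taken that meets 5 conditions, the last of them set after the values had been seen. The gene passed an adjusted p of 0.05, had a mean of at least 5 CPM in bIRI or in BHBNa_bIRI, and lay within 0.5 log2 units (1.41-fold) in both bIRI libraries, on log2 values of CPM plus 0.5. All 3 BHBNa_bIRI libraries lay at least 0.5 log2 units beyond the nearer bIRI library. The gene also passed an adjusted p of 0.1 in the same direction with the length and GC trends removed. Of 17967 genes tested, 5557 were close in bIRI at that level (30.9%). Of these, 177 were called higher (0.985% of genes tested) and 382 lower (2.13%) with the margin (274 and 289 with upper-quartile factors in place of TMM), and 71 higher (0.395%) and 197 lower (1.1%) were steady by every condition. The choice fixes the separation of the groups, so values in both injured groups are given for these genes as a description. Of the 71 that rose, 17 reached a mean of 5 CPM in BHBNa_bIRI and not in bIRI, among them Csf3r and Oas1a, and of the 197 that fell, 28 reached it in bIRI and not in BHBNa_bIRI. Such genes met that condition through the group where they are high, and adding 0.5 CPM narrows the log2 distance between low bIRI values, so the counts of steady genes support nothing further. Steady genes that fell had a median log2 fold change of -1.07 and a median transcript length of 3647 nucleotides, and those that rose had medians of 1.10 and 2582 nucleotides, against 2760.5 nucleotides over all genes tested.

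None of these conditions set a level relative to sham, but they took genes low or high in all 3 BHBNa_bIRI libraries. That choice favours values below sham among the falls and above sham among the rises. No share over all genes stands beside these counts or those of the groups below, so they only describe the genes. Of the 197 that fell, 138 were lower in all 3 BHBNa_bIRI libraries than in every sham library, 15 were higher than every sham library, and 44 overlapped with sham. Of the 71 that rose, 49 lay above every sham library, 4 lay below, and 18 overlapped. The groups of genes used below were drawn by hand from the steady genes after their values had been seen, so their sizes and medians only order the description. They hold 55 falling and 31 rising genes.

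One such group of falling genes joined fuel metabolism, mitochondrial carriers and mitochondrial maintenance, with 19 genes and a median log2 fold change of -1.03. In 18 of them, all BHBNa_bIRI libraries lay below all sham libraries. Cpt1a encodes the carnitine transferase that admits long fatty acids to mitochondria (ENSMUSG00000024900, GRCm38 chromosome 19, 3322334 to 3385733). It was at 318 and 228 CPM in bIRI replicates 1 and 3 and at 155, 157 and 125 CPM in BHBNa_bIRI replicates 1 to 3, against 515 to 712 CPM in sham. It fell by 0.91 on the log2 scale (SE 0.23, edgeR adjusted p = 0.0375) and by 0.59 without bIRI replicate 1, and the level was lowest in the pretreated kidneys. Acsl1, which activates long fatty acids by joining them to coenzyme A, was at 171 and 167 CPM in bIRI and 82.2, 85.2 and 56.6 CPM in BHBNa_bIRI. Etfa and Etfdh, which pass electrons from fatty acid oxidation to ubiquinone, fell together, Etfdh from 113 and 96.3 CPM to 48.4, 53.1 and 37.5 CPM and Etfa from 149 and 143 CPM to 88.5, 100 and 71.2 CPM. In each of these genes the pretreated libraries lay below bIRI and below sham.

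Cyp4a14, a fatty acid omega-hydroxylase and a textbook target of the lipid sensor PPAR-alpha (ENSMUSG00000028715, chromosome 4, 115486200 to 115496142), fell as well. Its level was 3820 to 5587 CPM in sham and 348 and 354 CPM in bIRI. It was at 106, 204 and 122 CPM in BHBNa_bIRI, a fall by 1.29 on the log2 scale (SE 0.31, edgeR adjusted p = 0.0349). Cyp4a genes are near copies of each other, so the counts are uncertain where reads fit several. Dld, the shared dehydrogenase subunit of the pyruvate and 2-oxoglutarate dehydrogenase complexes, differed from the others in its sham level. It was at 197 to 198 CPM in sham, at 174 and 190 CPM in bIRI and at 99.3, 99.8 and 76.7 CPM in BHBNa_bIRI. Injury alone left Dld near sham, and the pretreated libraries were lower than both. G6pc, the last enzyme of gluconeogenesis, was low in all injured libraries, at 19.7 and 14.7 CPM in bIRI and 9.11, 9.67 and 8.80 CPM in BHBNa_bIRI, against 240 to 334 CPM in sham. Acss1 (mitochondrial acetyl-CoA synthesis), Abat (breakdown of the transmitter GABA), Pklr (pyruvate kinase of liver type) and the mitochondrial carrier genes Slc25a13 and Slc25a16 fell by 1.18, 0.98, 1.12, 0.87 and 1.03 on the log2 scale.

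Some genes that protect against oxidants and foreign compounds made a second group, with 4 genes and a median log2 fold change of -1.24. They do not stand for the wider list of 20 NRF2 and glutathione genes tested, where 17 values were positive and 3 negative. The median of that list was 0.44, and 0.18 with the trends removed. By edgeR 0 of its members were called higher and 1 lower, and by DESeq2 6 higher and 1 lower. Selenop encodes selenoprotein P, which carries selenium in plasma (ENSMUSG00000064373, chromosome 15, 3268547 to 3280508). It was at 1619 to 1773 CPM in sham, at 548 and 628 CPM in bIRI and at 125, 220 and 133 CPM in BHBNa_bIRI. The fall by 1.88 on the log2 scale (SE 0.27, edgeR adjusted p = 0.0275) was 3.69-fold and was 1.77 on the log2 scale with the trends removed. An antisense partner, Ccdc152, shares 15.4% of the exonic bases of Selenop. Gclc, the catalytic subunit of the first enzyme of glutathione synthesis, stood at 440 to 486 CPM in sham, 399 and 472 CPM in bIRI, and 180, 210 and 243 CPM in BHBNa_bIRI. Nfe2l2, the gene of the antioxidant transcription factor NRF2 that drives Gclc, was at 186 and 162 CPM in bIRI and 80.8, 109 and 80.0 CPM in BHBNa_bIRI, where it overlapped with the 82.4 to 97.4 CPM of sham. Gclc was thus close to sham in bIRI and lower with BHB, whereas Nfe2l2 was above sham in bIRI and at its level with BHB. Fmo2, a flavin monooxygenase, fell by 1.43 on the log2 scale, from 83.2 and 75.8 CPM to 26.9, 35.1 and 26.2 CPM.

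The falling transport genes of the tubule numbered 5, with a median of -1.63. Calb1 encodes calbindin D28k, the calcium buffer of distal convoluted and connecting tubules (ENSMUSG00000028222, chromosome 4, 15881264 to 15908064). It was at 199 to 214 CPM in sham, at 143 and 142 CPM in bIRI, and at 26.2, 30.7 and 43.6 CPM in BHBNa_bIRI, a fall by 2.09 on the log2 scale (SE 0.22, edgeR adjusted p = 0.0266). The bIRI libraries were nearly equal, and all 3 pretreated libraries were far below them and below sham. Slc6a6, the taurine transporter, was at 232 and 230 CPM in bIRI and 67.3, 86.9 and 70.0 CPM in BHBNa_bIRI. Slc5a3, the sodium and myo-inositol cotransporter, was raised in bIRI, at 230 and 267 CPM against 60 CPM or less in sham, and lay at 71.9, 82.5 and 79.8 CPM in BHBNa_bIRI. Both move organic osmolytes, and Slc5a3 was the gene of this group whose pretreated libraries stayed above every sham library. Slc5a3 shares 159 exonic bases with Mrps6 on the same strand. Its transcript is 10913 nucleotides long, and with the trends removed its fall was 0.80 in place of 1.67 on the log2 scale.

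Transcription and chromatin genes made a falling group of 16 with a median of -1.32, and 10 of them lay below sham in all BHBNa_bIRI libraries. Their median transcript length of 5611 nucleotides was far above that of all genes. Tead1, the DNA-binding partner of the Hippo pathway coactivator YAP, was at 83.8 and 118 CPM in bIRI and 16.0, 29.2 and 18.6 CPM in BHBNa_bIRI, and fell by 2.25 on the log2 scale (1.55 with the trends removed). Klf9, a glucocorticoid-responsive Kruppel-like factor, was at 93.1 to 106 CPM in sham, 103 and 99.9 CPM in bIRI and 32.8, 41.6 and 30.8 CPM in BHBNa_bIRI. Sham and bIRI libraries of Klf9 overlapped, and only the pretreated libraries were apart. Nr2f2, an orphan nuclear receptor of vessels and mesenchyme, Aff4, a scaffold of the transcription elongation machinery, and Ctnnb1, the gene of beta-catenin, fell by 1.29, 1.65 and 0.98 on the log2 scale. Hdac8, a histone deacetylase, was at 8.54 and 9.29 CPM in bIRI and 3.96, 4.87 and 5.24 CPM in BHBNa_bIRI.

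Genes of RNA helicases and ribosome assembly (8 genes, median -1.16) differed from the fuel genes in their relation to sham, with 2 below sham, 2 above it and the others overlapping in BHBNa_bIRI. Dhx9, an RNA helicase, was at 112 and 150 CPM in bIRI and 40.3, 51.0 and 37.7 CPM in BHBNa_bIRI, below the 57.9 to 93.6 CPM of sham. Ddx3x, an X-linked RNA helicase of translation, was at 233 CPM in both bIRI libraries and 106, 130 and 96.0 CPM in BHBNa_bIRI, across the 117 to 136 CPM of sham. Gnl2 and Ddx10, nucleolar genes of ribosome assembly, were raised in bIRI over sham and were lower with BHB, Gnl2 from 42.5 and 53.3 CPM to 25.7, 22.8 and 19.8 CPM. A last group joined genes of cell clearance and chemokine signalling. Mertk, the receptor for dying cells on macrophages, fell from 33.9 and 33.3 CPM in bIRI to 11.4, 17.8 and 11.1 CPM in BHBNa_bIRI, and Cxcl12 fell from 54.8 and 76.4 CPM to 28.8, 34.6 and 33.8 CPM. Both genes were below sham in every pretreated library.

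The 2 genes that passed an adjusted p of 0.05 both with and without the trends were low in abundance. Fa2h, the fatty acid 2-hydroxylase of sphingolipid synthesis (ENSMUSG00000033579, chromosome 8, 111345135 to 111393824), had 18.6 and 24.4 CPM in bIRI and 5.52, 5 and 5.84 CPM in BHBNa_bIRI, against 10.5 to 16.1 CPM in sham. It fell by 1.98 on the log2 scale (SE 0.23, edgeR adjusted p = 0.0266), and by 2.22 with the trends removed (adjusted p = 0.0399). Cfap36, a cilium-associated gene, was at 36.3 and 30.4 CPM in bIRI and at 13.8, 12.5 and 10.1 CPM in BHBNa_bIRI, where it overlapped with the 12.7 to 13.9 CPM of sham. It fell by 1.45 on the log2 scale (SE 0.19, edgeR adjusted p = 0.0275). Neither gene was called when sham replicate 1, sham replicate 2, BHBNa_bIRI replicate 1 or BHBNa_bIRI replicate 3 was left out.

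**Figure D2:**
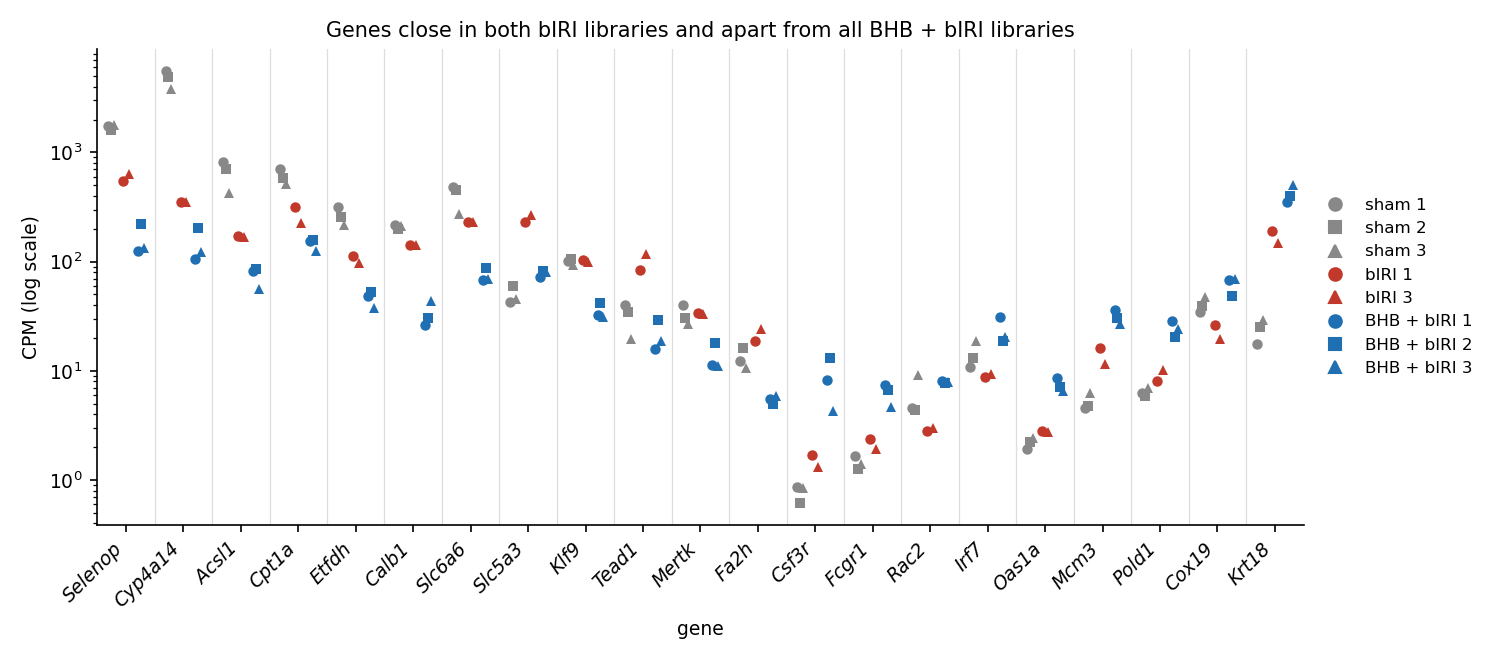
CPM (log axis) of 21 steady genes in each of 8 libraries, with sham in grey, bIRI in red and BHBNa_bIRI (BHB + bIRI) in blue, and the marker giving the replicate. The first 12 genes fell and the last 9 rose with BHB, and the bIRI pair of each gene lies close together, as the choice of genes requires.

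Among the rising steady genes, 10 belong to leukocytes and innate immunity, with a median of 1.37, and 8 of them lay above all sham libraries. Csf3r encodes the receptor for granulocyte colony-stimulating factor on neutrophils (ENSMUSG00000028859, chromosome 4, 126024550 to 126044440). It was at 1.71 and 1.31 CPM in bIRI and 8.18, 13.2 and 4.32 CPM in BHBNa_bIRI, with 0.616 to 0.870 CPM in sham, a rise by 2.51 on the log2 scale (SE 0.48, edgeR adjusted p = 0.0275). Rac2, the small GTPase of blood cells that drives the oxidative burst, was at 2.82 and 2.99 CPM in bIRI and 8.14, 7.75 and 7.88 CPM in BHBNa_bIRI. Lsp1, an actin-binding protein of leukocytes, was at 6.41 and 6.09 CPM in bIRI and 16.8, 17.4 and 17.3 CPM in BHBNa_bIRI, and Arhgap45, a GTPase-activating protein of blood cells, was at 5.52 and 5.41 CPM and at 13.8, 13.2 and 13.1 CPM. The pretreated libraries of these genes were tight, and Rac2 overlapped with the 4.41 to 9.15 CPM of sham. Pycard, which encodes ASC, the adaptor that links NLRP3 to caspase-1, rose from 10.7 and 10.1 CPM to 28.1, 19.8 and 26 CPM, against 3.90 to 7.26 CPM in sham.

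Interferon response genes formed a second rising group. These genes answer to type I and type II interferon through promoter elements that bind STAT and IRF factors, and many carry the interferon-stimulated response element, with paired GAAA blocks. The promoters of 3 list members are shown as examples that hold this element, with 2 members that were called higher (Isg15 and Oas1a) and 1 that was not called (Ifit1). Each is 250 bases before to 50 after the RefSeq gene start on GRCm38.p6, in the sense of the gene, with GAAANNGAAA or its reverse complement in capitals.
Isg15, chr4:156200769-156201068, minus strand: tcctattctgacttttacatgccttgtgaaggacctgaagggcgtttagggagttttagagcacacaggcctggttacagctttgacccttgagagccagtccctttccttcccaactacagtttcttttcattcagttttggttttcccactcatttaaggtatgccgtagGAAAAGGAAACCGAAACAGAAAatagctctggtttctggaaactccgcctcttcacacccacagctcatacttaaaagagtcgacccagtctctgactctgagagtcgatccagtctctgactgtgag
Oas1a, chr5:120907476-120907775, minus strand: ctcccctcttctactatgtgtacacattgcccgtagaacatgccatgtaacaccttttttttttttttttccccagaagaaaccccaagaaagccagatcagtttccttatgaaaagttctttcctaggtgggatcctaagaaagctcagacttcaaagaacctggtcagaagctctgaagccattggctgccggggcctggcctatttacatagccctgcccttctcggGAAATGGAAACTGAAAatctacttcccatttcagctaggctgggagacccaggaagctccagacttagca
Ifit1, chr19:34640639-34640938, plus strand: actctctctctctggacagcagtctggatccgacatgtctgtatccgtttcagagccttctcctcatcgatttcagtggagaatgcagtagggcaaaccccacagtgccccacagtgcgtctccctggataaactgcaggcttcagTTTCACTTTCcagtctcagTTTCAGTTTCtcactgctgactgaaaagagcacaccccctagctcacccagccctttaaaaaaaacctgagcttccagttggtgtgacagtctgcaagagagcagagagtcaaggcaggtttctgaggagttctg

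Isg15 holds 3 overlapping matches and Oas1a 2 overlapping ones, while Ifit1 holds 2 on the other strand. Bst2, Gbp3, Ifit3 and Ifitm3 also hold 2 each. A gene was counted if any of its promoters in the RefSeq table held the motif on either strand. That was so for 11 of 21 interferon list genes (52.4%) and for 481 of 12454 genes tested (3.86%). The motif was held by 4 of 9 list members called higher (44.4%) and by 7 of 12 of the other members (58.3%). A match is a description of the letters and no evidence of binding.

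Of 26 interferon-stimulated genes tested, 10 were called higher, 1 was called lower and 15 were not called. Over all genes, 4.88% were called higher and 8.65% lower. The list's median log2 fold change was 0.68, against 0.09 for the length bins of its members and -0.05 over all genes. With the trends removed the median was 0.47. Without bIRI replicate 3 it was 0.78, with 3 members higher and none lower, and without bIRI replicate 1 it was 0.72, with 12 higher and 5 lower. Oas1a, which makes the activator of RNase L (ENSMUSG00000052776, chromosome 5, 120896256 to 120907521), had 2.8 and 2.73 CPM in bIRI and 8.63, 7.04 and 6.57 CPM in BHBNa_bIRI, with 1.91 to 2.40 CPM in sham. It rose by 1.42 on the log2 scale (SE 0.27, edgeR adjusted p = 0.0275), and the near copies in its gene cluster make its counts uncertain. Irf7, the master factor of type I interferon induction, was at 8.73 and 9.42 CPM in bIRI and 31.1, 18.6 and 20.2 CPM in BHBNa_bIRI, and Irf1 was at 18.0 and 17.2 CPM and at 35.6, 29.9 and 33.1 CPM. The pretreated libraries were above both bIRI libraries in each, and for Oas1a and Irf1 above every sham library too.

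The subunits of the immunoproteasome, which trims peptides for antigen display, rose together. Psmb8 was at 5.69 and 3.8 CPM in bIRI and 19.1, 12.9 and 14.8 CPM in BHBNa_bIRI, Psmb10 at 24.6 and 14.3 CPM and at 68.1, 48.8 and 63.5 CPM, and Psmb9 at 3.57 and 2.55 CPM and at 8.65, 5.68 and 5.60 CPM. They rose by 1.72, 1.63 and 1.12 on the log2 scale, and by 1.2, 0.95 and 0.49 with the trends removed. Isg15, the ubiquitin-like modifier, was at 4.88 and 3.10 CPM in bIRI and 16.7, 10.9 and 8.97 CPM in BHBNa_bIRI, a rise by 1.61 on the log2 scale (SE 0.39, edgeR adjusted p = 0.0349). Its transcript is 756 nucleotides long, and with the trends removed the rise was 0.78 with an adjusted p of 0.164. The Ifit genes, whose products bind viral RNA ends, went another way. Ifit2 was called lower, with 12.8 and 27.7 CPM in bIRI and 9.72, 8.16 and 6.79 CPM in BHBNa_bIRI, and Ifit1 was not called, at 2.36 and 6.15 CPM and at 2.49, 3.27 and 1.17 CPM. Both Ifit genes were higher in bIRI replicate 3 than in replicate 1, and without replicate 3 the fall of Ifit2 was 0.65 in place of 1.30 on the log2 scale and no longer called (edgeR adjusted p = 0.122).

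**Figure D3:**
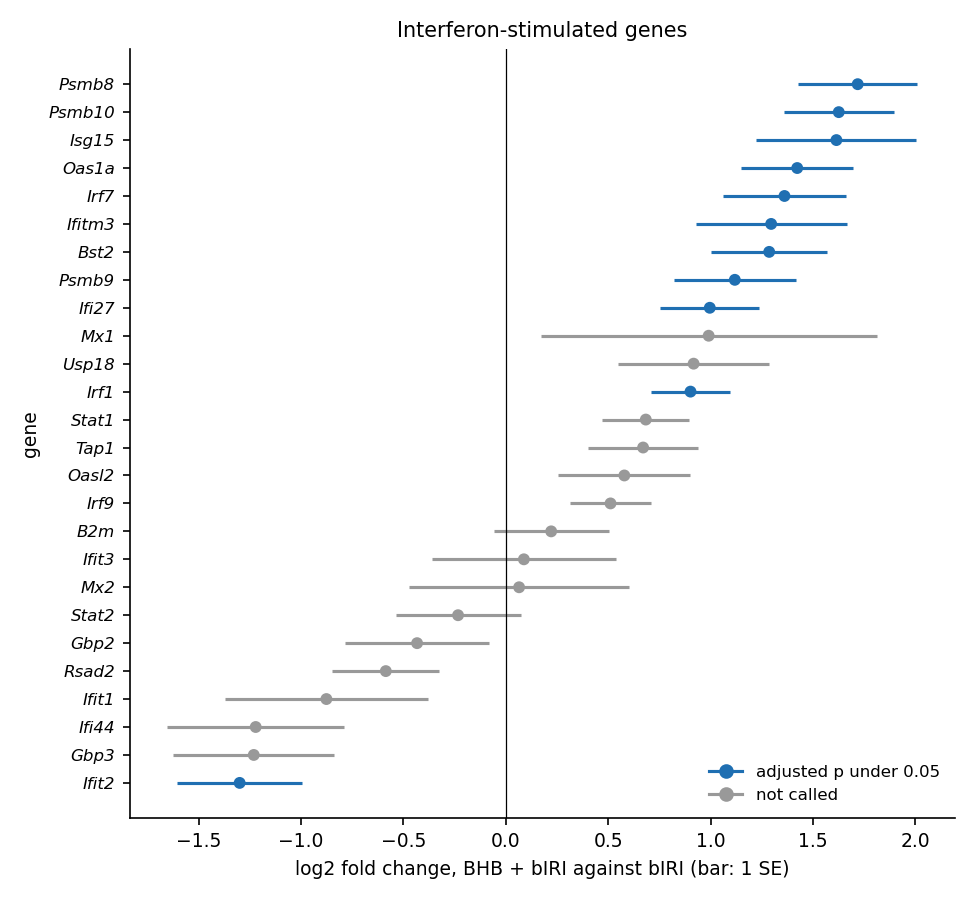
Log2 fold change with 1 SE of each of 26 interferon-stimulated genes, BHBNa_bIRI (BHB + bIRI) against bIRI, with members past an edgeR adjusted p of 0.05 in blue and others in grey. Psmb8 at 1.72 is the highest of the blue points and Ifit2 at -1.30 is the blue point below 0.

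DNA replication and repair genes made the next rising group, with 6 genes and a median of 1.09. Pold1, the catalytic subunit of DNA polymerase delta, was at 8.12 and 10.2 CPM in bIRI and 28.6, 20.3 and 23.9 CPM in BHBNa_bIRI, with 5.94 to 7.03 CPM in sham. Mcm3, a subunit of the replicative helicase, was at 16.0 and 11.4 CPM in bIRI and 36.4, 30.7 and 27.1 CPM in BHBNa_bIRI, with 4.55 to 6.25 CPM in sham. Rfc2, Gins2 and Dtymk rose by 0.93, 0.99 and 0.94 on the log2 scale, and Mgmt, which repairs alkylated guanine, by 1.41. Gins2 shares 67.3% of its exonic bases with Gse1 on the other strand, so reads of both cannot be told apart. Mki67 and Ccnd1, by contrast, were called lower, Mki67 at 3.79 and 16.9 CPM in bIRI and 1.59, 2.33 and 0.869 CPM in BHBNa_bIRI. Their falls of 2.69 and 1.41 on the log2 scale were 1.24 and 0.83 without bIRI replicate 3. Over the 28 cell cycle genes tested, 3 were higher and 2 lower, beside 4.88% and 8.65% over all genes. The median log2 fold change of this list was 0.29.

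Rising keratin and adhesion genes were those of simple and injured epithelium. Krt7 was at 331 and 282 CPM in bIRI and 504, 582 and 722 CPM in BHBNa_bIRI, against 108 to 131 CPM in sham, and rose by 0.97 on the log2 scale (1.03 with the trends removed). Fxyd5, a modulator of the sodium pump and of cell adhesion, rose from 51.8 and 40.3 CPM to 82.5, 76.6 and 113 CPM, far above the 9.29 to 13.6 CPM of sham. The level in both genes was raised in bIRI over sham and higher still with BHB. Neurl3, a ubiquitin ligase, and the transporter genes Slc26a6 and Slc5a11 were lower in bIRI than in sham and rose with BHB. Neurl3 was at 4.51 and 6.24 CPM in bIRI and 16.3, 16.2 and 22.1 CPM in BHBNa_bIRI against 11.5 to 13.3 CPM in sham. Slc26a6, the anion exchanger of the proximal brush border, was at 3.96 and 4.43 CPM in bIRI and 9.32, 8.44 and 9.05 CPM in BHBNa_bIRI, and Slc5a11, an inositol cotransporter, at 12.2 and 11.9 CPM and at 20.7, 23.6 and 23.6 CPM. Slc26a6 overlapped with its sham level of 8.93 to 14.3 CPM, whereas Slc5a11 stayed below the 71.5 to 86.5 CPM of sham.

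Mitochondrial genes were called in both directions. Steady genes that rose included Cox19, a copper chaperone for cytochrome c oxidase assembly, at 26.2 and 19.4 CPM in bIRI and 67.9, 48.7 and 68.8 CPM in BHBNa_bIRI, and Mrps16, a mitochondrial ribosomal protein, at 30.6 and 27.9 CPM and at 65.3, 45.1 and 66.8 CPM. Both were above every sham library with BHB. Coq4 (ubiquinone synthesis), Ndufaf3 (complex I assembly) and Bola3 (iron-sulfur cluster transfer) rose by 1.13, 1.03 and 0.79 on the log2 scale. Of 26 genes of mitochondrial protein import, 7 were called higher and 1 lower, beside 4.88% and 8.65% over all genes. The import genes had a median of 0.70 against 0.02 for their length bins, and 0.49 with the trends removed. Timm13, a chaperone of the intermembrane space, was at 70.4 and 37.1 CPM in bIRI and 159, 115 and 202 CPM in BHBNa_bIRI, and Timm22, the carrier translocase, at 28.4 and 14.8 CPM and at 52.0, 38.7 and 48.2 CPM. Hspa9, the import motor chaperone, was the member that fell, from 570 and 636 CPM to 304, 314 and 241 CPM. The import list's median was 0.37 without bIRI replicate 3 and 1.10 without bIRI replicate 1.

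Enzymes that feed the respiratory chain were called lower more often than higher, beside 8.65% lower and 4.88% higher over all genes tested. Of 26 fatty acid oxidation genes, 7 were called lower, 1 higher and 18 not at all, with a median of -0.20 where their length bins stood at 0.16. The median was 0.12 without bIRI replicate 1 and -0.32 without bIRI replicate 3, so its sign depended on the bIRI library taken. Acadvl, the very-long-chain acyl-CoA dehydrogenase, was at 63.0 and 99.0 CPM in bIRI and 18.2, 20.7 and 22.5 CPM in BHBNa_bIRI, but 42.9% of its exonic bases are shared with Dvl2 on the other strand. Ehhadh, the peroxisomal bifunctional enzyme, was at 887 and 476 CPM in bIRI and 186, 369 and 258 CPM in BHBNa_bIRI, a fall by 1.33 on the log2 scale that was 0.75 and no longer called without bIRI replicate 1 (edgeR adjusted p = 0.104). Etfb, the partner of the falling Etfa, was the member that rose, from 16.0 and 4.03 CPM to 46.9, 37.4 and 67.1 CPM, and 58.2% of its exonic bases are shared with the predicted gene Gm45233. Its rise of 2.33 on the log2 scale was 3.70 without bIRI replicate 1, and 1.65 and no longer called without replicate 3. Of 18 genes of the tricarboxylic acid cycle and its pyruvate entry, 4 were lower, 0 higher and 14 not called, with a median of -0.09. Pdha1, the pyruvate dehydrogenase subunit, was called lower, at 136 and 209 CPM in bIRI and 72.9, 84.3 and 75.0 CPM in BHBNa_bIRI. Sdha, shared by the cycle and complex II, was not called, at 292 and 366 CPM and at 224, 221 and 217 CPM.

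The medians of the nuclear-encoded subunits of complexes I, III and IV and of ATP synthase, short genes as a rule, shrank when the trends were removed. Of 37 complex I subunit genes 17 were called higher, beside 4.88% over all genes tested. Their median was 0.90, with a median of 0.49 for their length bins and 0.23 with the trends removed. Of 16 ATP synthase genes 8 were called higher, with the corresponding values 0.86, 0.57 and 0.21. With the trends removed, 12 complex I and 6 ATP synthase genes were higher at an adjusted p of 0.1, beside 5.05% over all genes tested. The 13 mitochondrially encoded proteins kept more of their median, at 0.74 with 2 called higher and at 0.58 with the trends removed, where 4 were higher at an adjusted p of 0.1. The medians of complexes III and IV were 0.68 and 0.79 and turned to -0.14 and -0.07 with the trends removed. Atp5b, the catalytic beta subunit of ATP synthase, was at 1525 and 1297 CPM in bIRI and 1463, 1261 and 1515 CPM in BHBNa_bIRI, so that the groups overlapped. Its log2 fold change was 0.00 (SE 0.23).

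Regulators of mitochondrial mass gave 1 rise and 4 falls among 18 genes, beside 4.88% higher and 8.65% lower over all genes. Ppargc1a, the coactivator PGC-1alpha, was at 18.4 and 79.3 CPM in bIRI and 14.1, 12.8 and 11.9 CPM in BHBNa_bIRI, with 30.7 to 40.6 CPM in sham. Its fall by 1.92 on the log2 scale (SE 0.45, edgeR adjusted p = 0.0339) rested mostly on bIRI replicate 3, and was 0.51 without that library. Esrra, the estrogen-related receptor that works with PGC-1alpha, rose from 55.7 and 77.0 CPM to 114, 96.2 and 124 CPM, while its relatives Esrrb and Esrrg were called lower. The falls of Esrrb and Esrrg, 1.93 and 1.17 on the log2 scale, were 0.68 and 0.77 without bIRI replicate 3. Gabpa, a nuclear respiratory factor, was at 35.3 and 35.5 CPM in bIRI and 19.8, 18.6 and 14.4 CPM in BHBNa_bIRI. Tfam, which packs mitochondrial DNA, was not called, at 37.1 and 27.1 CPM and at 31.7, 28.0 and 24.2 CPM.

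Among genes that handle ketone bodies, 1 of 11 enzymes and carriers was called lower and 0 were called higher, beside 13.5% called over all genes, with a median of -0.20 against -0.13 for their length bins. Bdh1 was at 28.0 and 51.7 CPM in bIRI and 25.1, 20.8 and 35.8 CPM in BHBNa_bIRI, and Oxct1 at 312 and 432 CPM and at 230, 241 and 318 CPM. Bdh1 overlapped between groups and Oxct1 did so too. The carrier gene Slc16a1 had a log2 fold change of 0.04 (SE 0.47). Slc16a1 was at 121 and 26.2 CPM in bIRI and 81.5, 80.4 and 65.5 CPM in BHBNa_bIRI, which lay between both bIRI libraries. Slc16a7, a second monocarboxylate carrier, was the called member, at 22.1 and 133 CPM in bIRI and 15.6, 12.1 and 13.3 CPM in BHBNa_bIRI, a fall by 2.50 on the log2 scale that was 0.70 without bIRI replicate 3. The receptor gene Hcar2 was low, at 1.53 and 0.523 CPM and at 2.05, 1.29 and 0.543 CPM.

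Genes of the routes through which BHB is known to signal, histone deacetylases and the inflammasome, were called about as often as the 13.5% of all genes. Of 18 histone deacetylase and sirtuin genes 1 was higher and 1 lower, of 12 inflammasome genes 1 was higher and 1 lower, and of 18 FOXO targets and mitochondrial antioxidants 2 were higher and 1 lower.

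Foxo3 and Cat were at lower values with an edgeR adjusted p of 0.0711 and 0.0734, and Cat was at 460 and 508 CPM in bIRI and 312, 344 and 303 CPM in BHBNa_bIRI. Sod2, the mitochondrial superoxide dismutase, was at 157 and 156 CPM in bIRI and 189, 177 and 207 CPM in BHBNa_bIRI. Its log2 fold change of 0.29 (SE 0.18) did not pass, and was 0.96 with the trends removed, for a transcript of 5861 nucleotides. Mt2 was at 4.81 and 0.633 CPM in bIRI and 3.71, 3.17 and 3.86 CPM in BHBNa_bIRI. Nlrp3 lay under 1 CPM in every library, and Il1b was at 1.03 and 0.872 CPM in bIRI and 5.18, 4.78 and 2.20 CPM in BHBNa_bIRI with an edgeR adjusted p of 0.0587.

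The classical injury markers Lcn2 and Havcr1 did not separate the groups. Lcn2 (the secreted protein NGAL) was at 2435 and 1000 CPM in bIRI and 1488, 1544 and 1884 CPM in BHBNa_bIRI, and Havcr1 (KIM-1) at 1929 and 534 CPM and at 1235, 1094 and 1280 CPM. In both genes all pretreated libraries lay between the bIRI libraries, so the direction depends on which bIRI library is taken. The log2 fold change of Lcn2 was -0.07 (SE 0.37) with both, -0.58 without bIRI replicate 3 and 0.77 without bIRI replicate 1. Of 25 injury markers tested, 3 were called higher and none lower, beside 4.88% and 8.65% over all genes. The median of these markers was 0.62 and ran from -0.09 to 1.35 as single libraries were left out.

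Among nephron segments, the thick ascending limb had the lowest median, -1.67 over 12 genes against -0.03 for their length bins. Beside 8.65% lower and 4.88% higher over all genes, 6 of them were called lower and 0 higher. Both bIRI libraries differed widely in these genes. Slc12a1, the sodium, potassium and chloride cotransporter of that segment, was at 33.1 and 1114 CPM in bIRI replicates 1 and 3 and 25.3, 17.8 and 21.3 CPM in BHBNa_bIRI, with 272 to 542 CPM in sham. Egf, the growth factor precursor made there, was at 21.5 and 135 CPM in bIRI and 9.91, 10.2 and 10.9 CPM in BHBNa_bIRI, with 788 to 1407 CPM in sham. Umod, the gene of uromodulin, was at 1412 and 2865 CPM in bIRI and 765, 219 and 641 CPM in BHBNa_bIRI. All 3 genes were lower in every pretreated library than in either bIRI library, and their falls of 4.74, 2.93 and 1.98 on the log2 scale were 0.63, 1.07 and 1.39 without bIRI replicate 3. The summed level of the list was 1756 and 5182 CPM in bIRI and 480 to 1204 CPM in BHBNa_bIRI. Without bIRI replicate 3 the median was -0.23 with 1 member called, and without bIRI replicate 1 it was -2.21 with 9.

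The distal convoluted tubule list had 2 of 10 members lower and a median of -0.81, which was -0.20 without bIRI replicate 3 and -1.11 without bIRI replicate 1. The proximal S3 list had 3 of 12 lower and a median of -0.55, which was -0.40 without bIRI replicate 3 and -1.46 without BHBNa_bIRI replicate 3. Slc7a13, an S3 amino acid carrier, was at 28.5 and 83.5 CPM in bIRI and 11.7, 14.0 and 13.4 CPM in BHBNa_bIRI, and Acsm3, a medium-chain acyl-CoA synthetase, at 34.6 and 127 CPM and at 15.8, 12.6 and 18.3 CPM. Slc3a1, a partner of cystine transport, was at 72.6 and 117 CPM in bIRI and 36.5, 38.2 and 33 CPM in BHBNa_bIRI. All 3 were lower than bIRI with BHB, and without bIRI replicate 3 the falls were 1.13, 1.16 and 1.02 in place of 2.10, 2.38 and 1.40 on the log2 scale. Beside 4.88% higher and 8.65% lower over all genes, the proximal S1 and S2 list had 1 of 18 members higher and none lower. Its median was 0.26. Its mean log2 level was 6.77 and 6.11 in bIRI and 7.03, 6.82 and 6.47 in BHBNa_bIRI, far under the 9.11 to 9.45 of sham in all injured libraries.

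Of 16 neutrophil genes listed, 11 were tested, and genes can pass the low-count filter through the group where they are high. The median and rank of this list may therefore owe something to the filter. Of the cell type lists, neutrophils had the highest median, 1.77 over 11 genes against 0.02 for their length bins, with 4 called higher. Their summed level was 23.6 and 8.44 CPM in bIRI and 53.7, 91.4 and 58.7 CPM in BHBNa_bIRI, with 2.76 to 5.87 CPM in sham, so that every pretreated library was above both bIRI libraries. S100a8, a subunit of calprotectin, was at 2.95 and 0.611 CPM in bIRI and 10.7, 18.3 and 14.0 CPM in BHBNa_bIRI, a rise by 3.01 on the log2 scale that was 4.61 without bIRI replicate 1. The neutrophil median was 1.15 without bIRI replicate 3 and 2.77 without bIRI replicate 1, with 1 and 8 members called. The macrophage and monocyte list had 2 of 18 members called higher (Fcgr1 and Tyrobp), a median of 0.62 and a summed level of 213.8 and 162.5 CPM in bIRI and 267.5 to 330.0 CPM in BHBNa_bIRI. T and natural killer, B and plasma, and dendritic cell lists had 1 member called higher each, of 14, 11 and 11 tested. Over all genes 4.88% were called higher. The erythroid list had the lowest median of the blood cell lists, -1.36 over 8 genes against 0.57 for their length bins, with 0 called by edgeR, 3 lower at an unadjusted p of 0.05 and 1 lower by DESeq2, and a summed level of 155.5 and 103.9 CPM in bIRI and 33.5 to 57.3 CPM in BHBNa_bIRI. Its median was -0.37 without bIRI replicate 1 and -1.80 without bIRI replicate 3. The part of these cell types in the results for single genes was not tested.

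**Figure D4:**
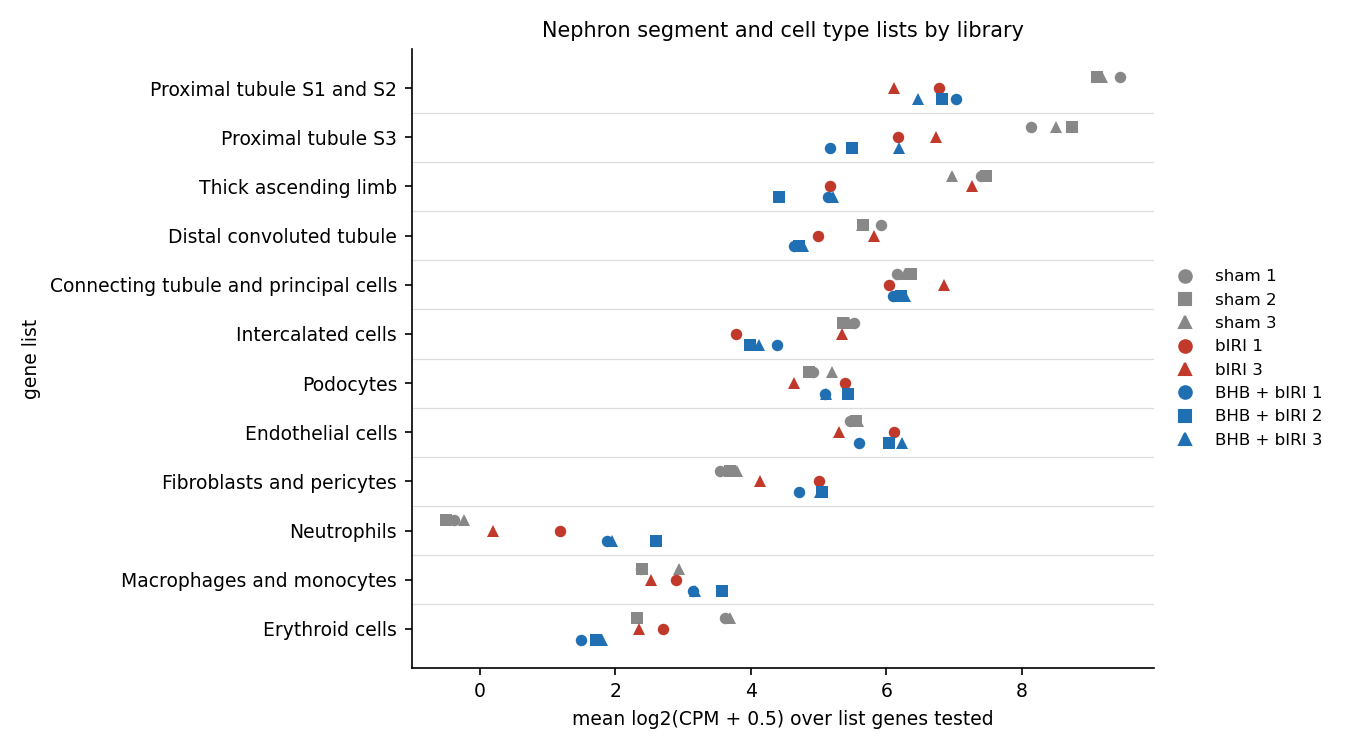
Mean log2(CPM + 0.5) over the tested genes of each nephron segment and cell type list, 1 point per library, with sham in grey, bIRI in red and BHBNa_bIRI (BHB + bIRI) in blue. Neutrophil genes are higher in every blue point than in either red point, and the thick ascending limb shows 1 red point near sham (bIRI replicate 3, 7.26) and 1 among the blue points (bIRI replicate 1, 5.18).

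Of 26 cytokines and chemokines tested, 2 were called higher and 2 lower, with a median of 0.30, beside 4.88% and 8.65% over all genes. Of 15 NF-kappa-B feedback genes 3 were called higher and 0 lower, with a median of 0.48 that was 0.23 to 1.03 with 1 library left out. Cxcl16, a membrane-bound chemokine, was at 53.5 and 36.8 CPM in bIRI and 97.2, 93.3 and 94.2 CPM in BHBNa_bIRI, and Ccl7, a chemokine that draws monocytes, at 0.657 and 0.611 CPM and at 3.40, 8.05 and 2.45 CPM. Nfkb2, a subunit and feedback target of the non-canonical pathway, rose from 36.2 and 24.2 CPM to 83.2, 59.8 and 86.4 CPM. Lif, a cytokine of the interleukin-6 family, was called lower, at 19.2 and 11.5 CPM in bIRI and 7.48, 7.47 and 6.14 CPM in BHBNa_bIRI, and stayed far above the 0.298 to 0.465 CPM of sham. Its fall of 1.12 on the log2 scale was 0.65 and no longer called without bIRI replicate 1 (edgeR adjusted p = 0.0833).

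Lists of long or short transcripts are set beside the genes of like length. Over all genes tested, 4.88% were called higher and 8.65% lower. In the longest bin 0.39% were called higher and 25.2% lower, and in the shortest bin 13.2% and 2.57%. Of 44 chromatin modifiers and remodelers, 16 were called lower and none higher, with a median of -0.76, a median of -0.60 for their length bins and -0.22 with the trends removed. Kmt2e, a chromatin reader of 7317 nucleotides, was at 19.0 and 68.8 CPM in bIRI and 6.53, 8.70 and 5.73 CPM in BHBNa_bIRI, and its fall of 2.65 on the log2 scale was 1.44 without bIRI replicate 3. The 25 giant cytoskeletal genes had 3 lower and a median of -0.57, which was -0.01 with the trends removed, and Macf1, with 23495 nucleotides, went from -0.76 to -0.01. The 23 collagens, whose length bins stood at -0.60, had a median of 0.06, apart from their bins. Ribosomal protein genes are short. Of 33 genes of the small and 48 of the large cytosolic subunit, 18 and 31 were called higher, with medians of 1.31 and 1.21 against 0.66 and 0.49 for their length bins. The medians were 0.60 and 0.53 with the trends removed. Ribosomal protein genes have many near-identical processed copies, so their counts are uncertain.

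**Figure D5:**
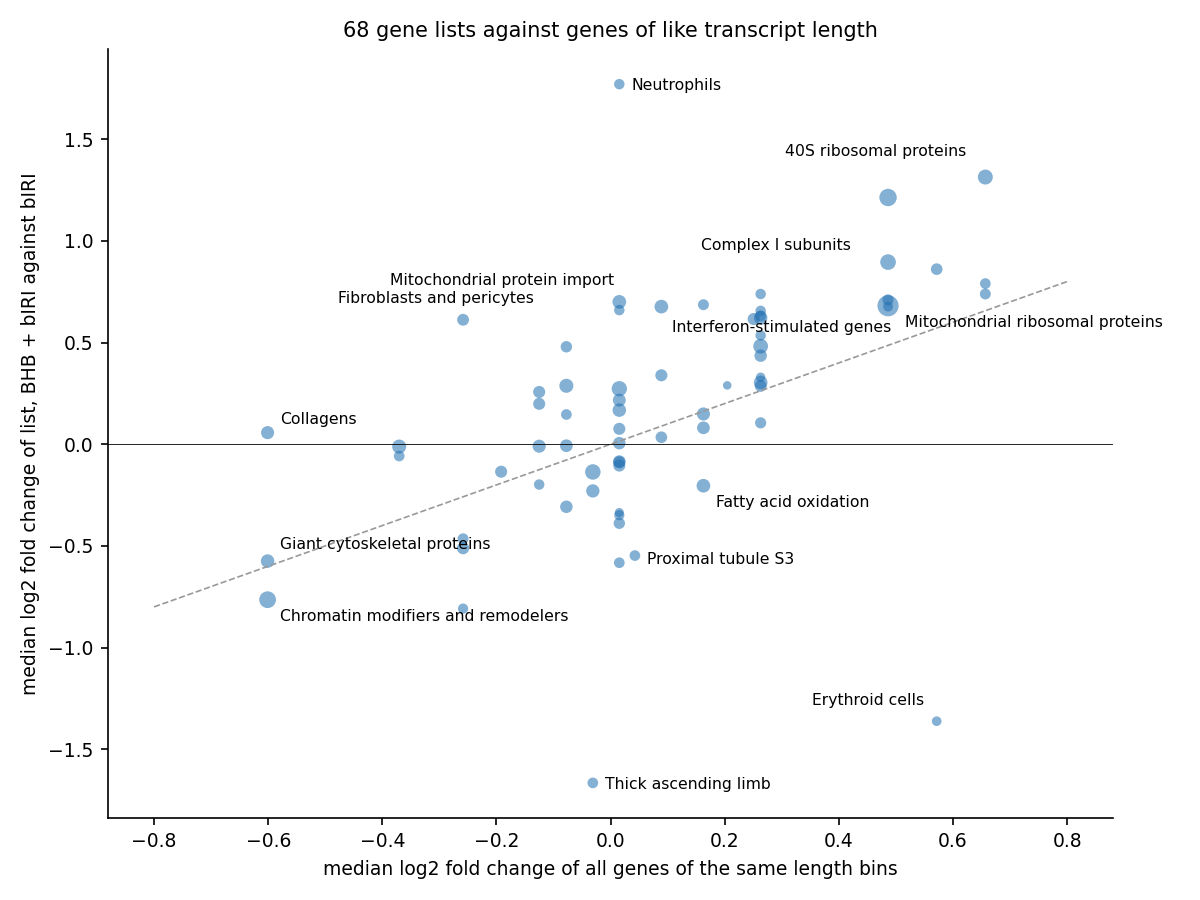
Each point is 1 of 68 gene lists, with its median log2 fold change (BHBNa_bIRI, drawn as BHB + bIRI, against bIRI) on the vertical axis, the median log2 fold change of all genes in the same length bins on the horizontal axis, and a size that grows with the number of genes. The dashed line marks equal values, with neutrophils at 1.77 and the thick ascending limb at -1.67 far from it, and the erythroid list, at -1.36 where its length bins stand at 0.57, farther still.

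The sodium pump and its regulators changed unevenly. Atp1b1, the beta subunit of the renal sodium pump, was at 914 and 2238 CPM in bIRI and 357, 460 and 328 CPM in BHBNa_bIRI, a fall by 2.05 on the log2 scale (SE 0.36, edgeR adjusted p = 0.0275) that was 1.26 without bIRI replicate 3. Fxyd4, a regulator found in the collecting duct, was at 55.2 and 81.7 CPM in bIRI and 209, 146 and 172 CPM in BHBNa_bIRI, against 25.0 to 43.8 CPM in sham. Of 11 such genes, 4 were called higher and 1 lower, beside 4.88% and 8.65% over all genes. Heat shock chaperones (18 genes, 3 lower, median -0.11), the circadian clock (19 genes, 3 lower, median -0.51), the EGF family (13 genes, 3 lower, median -0.47) and hypoxia response genes (20 genes, 4 lower and 1 higher, median -0.31) had more genes called lower than higher, as did all genes tested (1555 against 876). The hypoxia median was 0.03 without bIRI replicate 1, and 9 of the 18 chaperone genes had positive values. Mitochondrial ribosomal proteins (76 genes, 29 higher and 2 lower, median 0.68 and 0.21 with the trends removed) and the spliceosome (32 genes, 6 higher and 2 lower, median 0.48) had more genes called higher. Immediate early genes (24 tested) and tubulins (13 tested) had 0 calls at an adjusted p of 0.05 by edgeR, 2 and 4 at an unadjusted p of 0.05, and 1 and 2 by DESeq2.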

How the data were processed

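RNA-seq libraries of kidney were made from oligo(dT)-selected RNA in 3 groups of 3, per the labels' protocols. The deposited values were raw counts per gene, 1 table for each library, which the authors made with HISAT2 on mm10 and featureCounts of Subread and compared with DESeq2, per the submitters' processing notes, which give no versions. Counts were used as deposited. GENCODE M21 (GRCm38) named 29220 of 29678 genes and gave transcript length and GC content, those of the longest protein-coding transcript.

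Genes were filtered with filterByExpr and fitted with edgeR 4.0.16 in R 4.3.3 (TMM factors, quasi-likelihood, 1 mean per group, two-sided tests) over 8 libraries, bIRI replicate 2 left out, with 5 residual degrees of freedom, a biological coefficient of variation of 0.296 and Benjamini-Hochberg adjustment over 17967 genes. SE is the log2 fold change divided by the square root of F. For the trend-free fit, each library's deviation was fitted over 12390 genes by natural splines in length and GC content (5 degrees of freedom each) and used as an offset.

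The rule for named genes took genes close in bIRI and also called with the trends removed, which gave Fa2h and Cfap36, then up to 3 called members of each of 68 lists, and fixed genes of ketone metabolism, BHB signalling and injury. The steady genes at an adjusted p of 0.1, their hand-made groups and other genes were chosen after the values had been seen. Some genes the rule covers are not reported here. The comparison, lists and tests were chosen with earlier results of these data known. List medians stand beside the median of all genes in the members' length bins. Alternatives were DESeq2 1.42.0, other scaling factors and filters, other sets of libraries, a replicate block, a minimum fold and leaving out each library. The code was tested on simulated data with a smaller spread than these libraries, which checks the code and not the calls made here. Floors cover counting error only. Promoters came from RefSeq on GRCm38.p6.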

Additional observations from a re-analysis of the deposited data

How the results depend on the processing

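Counts are of genes called by edgeR at an adjusted p of 0.05 unless said otherwise, and the cause of each shift was not tested. Against 2431 calls (876 higher, 1555 lower), DESeq2 gave 4507 (2012 and 2495), the fit of all 9 libraries 5847 (2724 and 3123), a minimum fold of 1.2 gave 862 (256 and 606), the length trend removed 1462 (502 and 960), both trends removed 2 (0 and 2), the 5 compared libraries alone 1 (1 and 0), and no filter on low counts 1447 higher. Upper-quartile factors gave 2421 calls, 42.6% of them higher in place of 36.0%. Leaving out 1 library gave 0 to 8381 calls, 0 to 4183 higher and 0 to 4198 lower. Genes close in bIRI (177 higher, 382 lower) numbered 94 and 214 with the minimum fold, 0 and 2 with both trends removed, 1 and 0 in the compared libraries alone, 274 higher with upper-quartile factors, 230 lower with the length trend removed, 100 and 226 within 0.25 log2 units, 327 and 595 within 1, 15 and 28 with a margin of 1, and 0 to 238 and 0 to 342 with 1 library left out. With both trends removed, the 2 calls became 2363 at an adjusted p of 0.1, 348 at a filter of 1 CPM, 0 in the compared libraries alone, and 0 to 7610 with 1 library left out.

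With the replicate number as a block, 0 genes were called, 0 higher and 0 lower (2571 passed an adjusted p of 0.1 and 5270 an unadjusted p of 0.05), and 0 close genes in either direction. The numbers share only 2 pairs of bIRI and BHBNa_bIRI libraries, whose deviations correlated at 0.0883 and -0.154 over 12404 genes, so they were not taken as a pairing. The length correlation of -0.497 became 0.0210 with both trends removed and 0.0170 with the length trend removed, as that correction is built to do, and ran from -0.504 to -0.411 with 1 library left out.

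Some genes changed sign, among them Macf1, which was called lower in the main fit. Atp5b was at -0.022 with the filter of 1 CPM, -0.26 with both trends removed and -0.25 with the length trend removed, Havcr1 at 0.35 with the block and 0.12 with both trends removed, Mt2 at -0.50 and -0.33, Tfam at 0.18 and 0.000066, and Macf1 at 0.0032 with the length trend removed. With 1 library left out the ranges were -0.11 to 0.18 for Atp5b, -0.69 to 1.22 for Havcr1, -0.24 to 1.36 for Hcar2, -0.58 to 0.77 for Lcn2, -0.43 to 2.55 for Mt2, -0.70 to 0.16 for Nlrp3, -0.68 to 1.59 for Slc16a1 and -0.41 to 0.10 for Tfam. Of 120 called genes followed by name, all 120 kept their call with DESeq2, RLE factors, all 9 tables and the filter of 1 CPM, 119 with upper-quartile factors or TMM factors made without the most abundant genes, 110 without a filter, 93 with the length trend removed, 80 with the minimum fold, 2 with both trends removed, 1 in the compared libraries alone and 0 with the block.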

Other observations

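Gm47283, a predicted gene model on the Y chromosome (chromosome Y, 90784738 to 90816464 on GRCm38), was the 1 gene called in the fit of the 5 compared libraries alone. It was at 0.810 and 0.851 CPM in bIRI replicates 1 and 3, at 14.7, 15.7 and 15.8 CPM in BHBNa_bIRI and at 0.0994, 0.708 and 2.30 CPM in sham, a log2 fold change of 4.21 (SE 0.88, edgeR adjusted p = 0.0293). All 3 pretreated libraries were above every bIRI and sham library, and the gene reached a mean of 5 CPM in BHBNa_bIRI alone. The value ran from 4.19 to 4.24 on the log2 scale as single libraries were left out, and was 2.80 with the length and GC trends removed (edgeR adjusted p = 0.0764).

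Atp6v0a4, a subunit of the proton pump of intercalated cells, was at 128 and 139 CPM in bIRI and 81.4, 73.4 and 60.7 CPM in BHBNa_bIRI, and fell by 0.89 on the log2 scale (SE 0.22, edgeR adjusted p = 0.0362). It does not stand for the 21 vacuolar proton pump genes tested, with 2 called higher, 2 lower and a median of 0.08. Of 12 intercalated cell genes 1 was called lower and 0 higher. Over all genes 4.88% were called higher and 8.65% lower.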
